A study of Mus musculus with 6 samples.

Results

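Ndrg2-KO DCs and vitamin D3 (VD3) stimulated DCs were compared with each other, gene by gene, to describe which expression programmes separate cells that both had little Ndrg2 mRNA and more Vegfa mRNA than untreated DCs. The cells were the barcodes of the Ndrg2-KO and the VD3 libraries with at least 300 genes, under 100000 unique molecular identifiers (UMIs) and under 10% mitochondrial UMIs, which gave 7969 Ndrg2-KO and 8825 VD3 stimulated cells, or 16794 of the 35083 cells kept in the 6 libraries of the series. Genes with at least 200 UMIs in either library entered the comparison, which left 11185 genes.

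All cells were bone marrow-derived DCs of wild-type C57BL/6J mice, grown with granulocyte-macrophage colony-stimulating factor (GM-CSF), and only cells in suspension were used. VD3 stimulated DCs were given 1,25-dihydroxycholecalciferol (1e-06 M, 24 h) once the culture had reached day 7. Ndrg2-KO DCs were nucleofected with Cas9 protein and 3 guide RNAs against Ndrg2 and received no VD3. The untreated DC library, without nucleofection or VD3, is given as a reference beside the other values. Each condition is 1 droplet library (10X Genomics, 3′ chemistry), so no difference has a replicate check, no p-value was computed, and differences between cultures cannot be told apart from differences between conditions. DCs that received non-targeting guides were not analysed here, so nucleofection and loss of Ndrg2 cannot be told apart either, and the culture day on which the Ndrg2-KO cells were harvested is not given in the sources used here.

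DCs grown in GM-CSF are a mixture of monocyte- and macrophage-like premature cells and of mature cells that carry Ccr7, the receptor that guides DCs to lymph nodes, and the costimulatory proteins that T cells need. Active vitamin D binds the vitamin D receptor (Vdr), which pairs with a retinoid X receptor on DNA. Its best known target is Cyp24a1, the enzyme that degrades vitamin D, and in DCs it is known for a tolerogenic state with little T cell stimulation. Ndrg2 encodes a cytoplasmic protein of the NDRG family, and Vegfa encodes the main growth factor of blood vessel endothelium.

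The levels below are UMIs of a gene summed over the cells of a library and scaled to 1000000 UMIs (CPM), and where 3 levels follow each other they are those of Ndrg2-KO, VD3 stimulated and untreated DCs, in that order. The targeted gene was checked first. Ndrg2 (ENSMUSG00000004558, chromosome 14, 51905271 to 51914158 on the minus strand of mm10) held 127, 165 and 613 UMIs, or 0.884 (95% interval 0.737 to 1.05), 1.42 (1.21 to 1.65) and 4.62 (4.26 to 5.0) CPM. It was below the untreated level in both libraries and lower in Ndrg2-KO than in VD3 stimulated DCs, with a log2 ratio of -0.68 (-1.03 to -0.34). Since it stayed under 200 UMIs in both libraries it is not among the 11185 genes, and 3′ counting sees the amount of Ndrg2 transcript, not the indels in it. All intervals are exact and cover counting error only.

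Vegfa (ENSMUSG00000023951, chromosome 17, 46016993 to 46032369 on the minus strand) held 12182, 1681 and 483 UMIs, or 84.8, 14.4 and 3.64 CPM. Both libraries were thus above untreated DCs, but Vegfa was 5.88-fold higher in Ndrg2-KO than after VD3, which is a log2 ratio of 2.55 (2.48 to 2.63). Its UMIs were spread over many Ndrg2-KO cells: the 1% of cells with the most Vegfa held 9.72% of its UMIs in Ndrg2-KO, 21.5% in VD3 stimulated and 42.0% in untreated DCs. Such a share tends to rise as the UMIs of a gene fall, so its order across libraries cannot be told apart from that of the levels.

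Over all 11185 genes, 1264 (11.3%) were at least 2-fold higher in Ndrg2-KO DCs and 748 (6.69%) at least 2-fold higher in VD3 stimulated DCs, and 9173 (82.0%) lay within 2-fold. These 2 shares are the background for the counts of each gene list that follows. The median log2 ratio of Ndrg2-KO over VD3 stimulated DCs was 0.01, with quartiles at -0.35 and 0.44. A difference of 8-fold or more was found for 236 genes in the direction of Ndrg2-KO and for 132 in that of VD3. Genes 2-fold higher in Ndrg2-KO DCs took 19.7% of all UMIs there and 5.34% in VD3 stimulated DCs, while those 2-fold higher in VD3 stimulated DCs took 10.6% there and 3.85% in Ndrg2-KO DCs. The split of the calls depends on the total that levels are scaled to: with mitochondrial and ribosomal protein genes left out of it, 1033 genes were 2-fold higher in Ndrg2-KO and 1052 in VD3 stimulated DCs, and the median of all genes moved to -0.18.

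**Figure D1:**
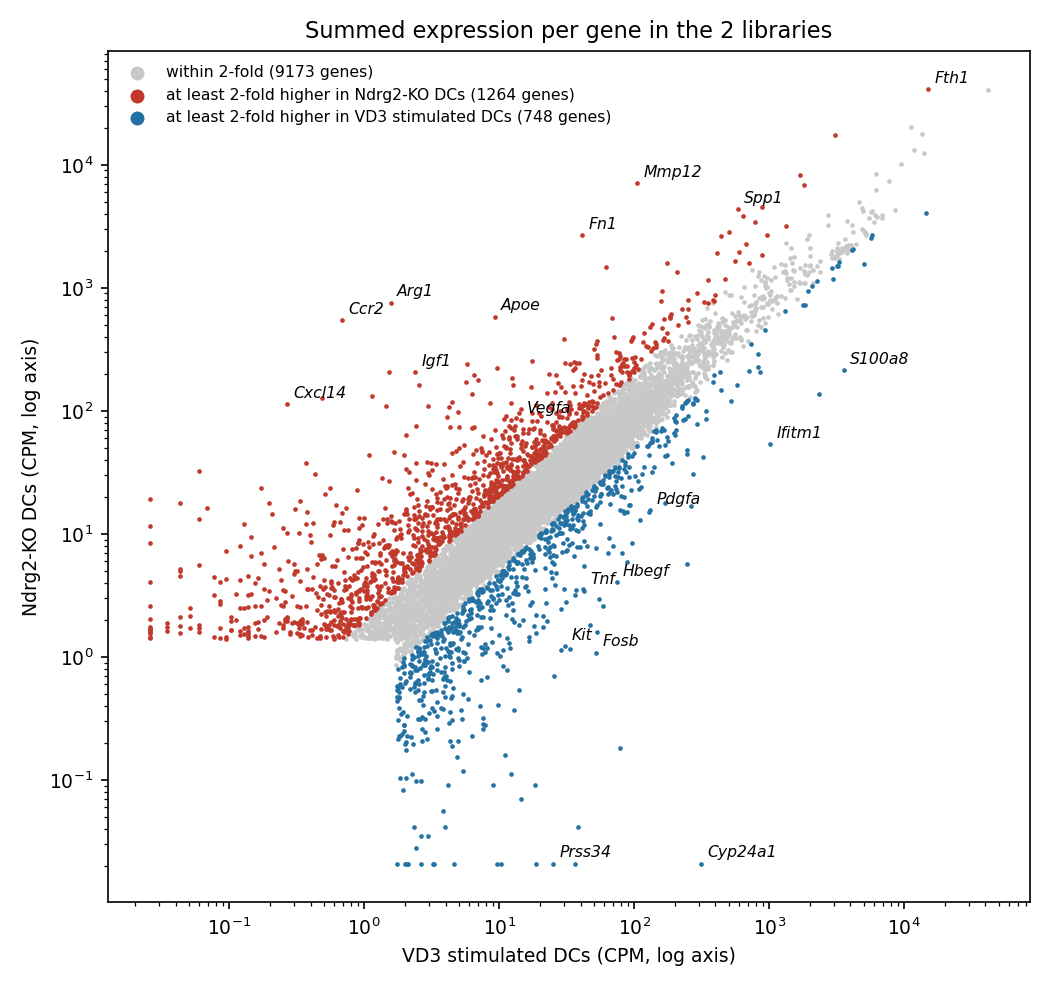
CPM of each of the 11185 genes in VD3 stimulated DCs (horizontal log axis) and in Ndrg2-KO DCs (vertical log axis), 1 point per gene; colours mark the 1264 genes at least 2-fold higher in Ndrg2-KO and the 748 at least 2-fold higher in VD3 stimulated DCs. Ccr2, Arg1, Mmp12 and Fn1 lie far on the Ndrg2-KO side, and Cyp24a1, Prss34 and Ifitm1 on the VD3 side.

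The libraries differed in ways that touch all of these values. Kept cells had a median of 16316 UMIs and 3625 genes in Ndrg2-KO DCs and of 12089 UMIs and 2808 genes in VD3 stimulated DCs, and the sums held 143627482 and 116461484 UMIs. The limit on mitochondrial UMIs was exceeded by 1163 Ndrg2-KO and 960 VD3 barcodes, and the median mitochondrial share of the kept cells was 6.6% against 5.60%. Ribosomal protein genes took 14.2, 24.7 and 20.5% of UMIs, and 16 of 99 were 2-fold higher in VD3 stimulated DCs against 2 in Ndrg2-KO DCs. The libraries shared 19 barcodes, 0.238% of the Ndrg2-KO and 0.215% of the VD3 stimulated cells. The DC label was checked with Itgax (CD11c), at 263, 77.8 and 146 CPM, and Cd74 (the MHC class II invariant chain), at 4180, 5811 and 6743 CPM.

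Cells that carried at least 3 markers of a cell type were counted after each cell was drawn down to 2000 UMIs, which left out 134 Ndrg2-KO and 1149 VD3 stimulated cells below that depth. At least 3 of 8 premature DC markers were found in 72.6, 10.3 and 39.7% of cells, so Ndrg2-KO lay above and VD3 stimulated DCs below the untreated library. For 8 mature DC markers (Ccr7, Fscn1, Ccl22 and others) the order was the reverse, with 34, 51.9 and 45.6% of cells. The premature list holds Mmp12, Ccr2 and Fn1, so its share is not independent of the large ratios of these genes given below. Of its 8 members 6 had a log2 ratio above 0 and 2 below it, the lowest at -2.06. Chil3, also in that list, was found in 13.4, 23.4 and 26.4% of cells and Cd34 in 0.434, 0.743 and 1.53%. Without drawing cells down, the shares with mature markers were 80.9, 59.2 and 65.8% and those with premature markers 88.9, 29.1 and 52.9%, so the order of the mature shares depended on depth. At 2000 UMIs, proliferation markers were found in 9.02, 13.6 and 16.3% of cells and granulocyte or monocyte markers in 1.53, 11 and 11.7%. Early granulocyte markers were found in 0.0383, 0.886 and 1.27% of cells, basophil markers in 0 of 7835 Ndrg2-KO cells, which allows a share of up to 0.0383% (3 cells of the total), and in 0.469 and 0.354% of the others. B cell markers were found in 0, 0.156 and 0.236% and resident macrophage markers in 2.0, 2.31 and 2.11% of cells. The order of the resident macrophage shares depended on the setting. They were 15.4, 12.7 and 9.90% with at least 2 markers, 6.11, 5.99 and 5.09% at 4000 UMIs, and 27.9, 12.2 and 17.6% without drawing down. A difference in summed CPM therefore holds both other proportions of cells and other levels within cells, which in such sums cannot be told apart, and the part of free RNA in these shares was not tested.

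**Figure D2:**
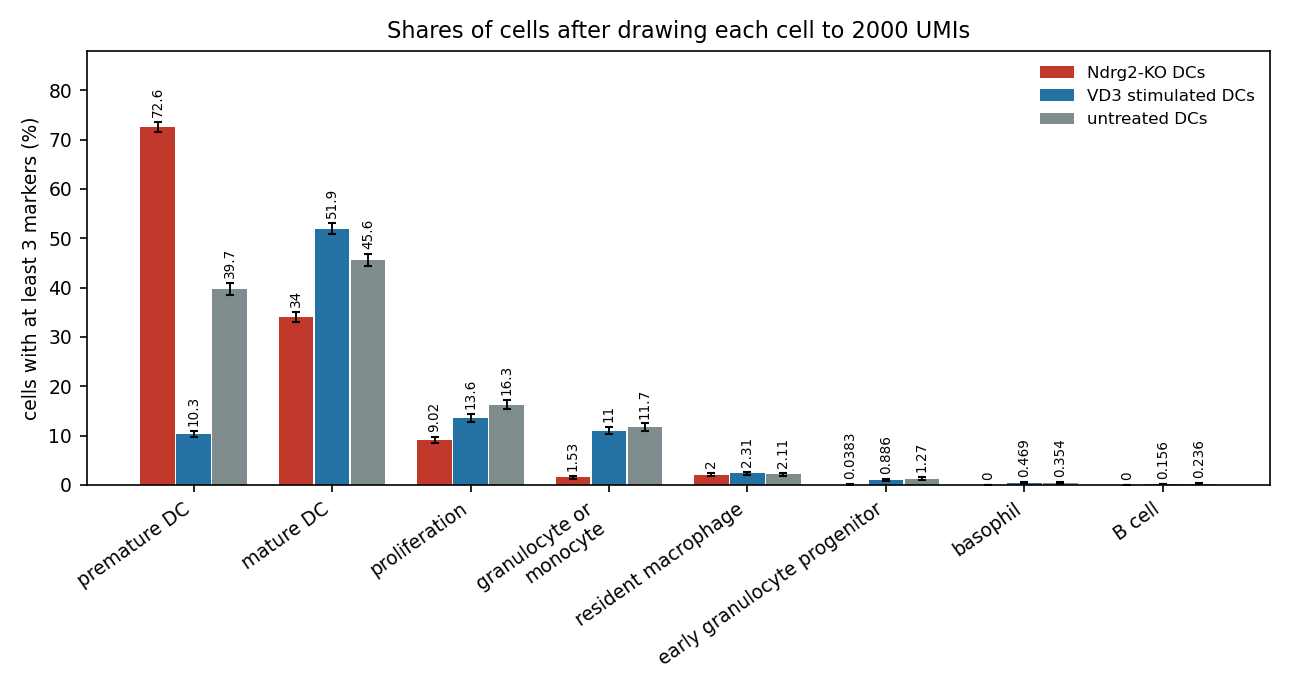
Share of cells (%) that held at least 3 markers of each list after drawing to 2000 UMIs, for Ndrg2-KO, VD3 stimulated and untreated DCs, with exact 95% intervals for counting error. Premature markers were most frequent in Ndrg2-KO DCs (72.6%) and mature markers in VD3 stimulated DCs (51.9%), and granulocyte markers were at 1.53% in Ndrg2-KO DCs against 11% in VD3 stimulated DCs.

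The genes with the highest ratios in Ndrg2-KO DCs had nearly no UMIs after VD3. Ccr2, the receptor that brings monocytes out of the bone marrow, was at 548, 0.687 and 318 CPM, a 798-fold difference, with 80 UMIs left in the VD3 library. Arg1 (arginase 1, which degrades arginine in alternatively activated macrophages) was at 760, 1.58 and 5.02 CPM, or 481-fold higher. Cxcl14, a chemokine, was at 114, 0.266 and 2.92 CPM. Of these, Ccr2 was well expressed in untreated DCs, whereas the others were far below the Ndrg2-KO level there too. Fabp4 and Retnla (markers of alternatively activated and lipid-handling macrophages) were at 126, 0.489 and 4.22 CPM and at 17.9, 0.0429 and 0.701 CPM. Retnla came from few cells, since 87.4% of its UMIs in Ndrg2-KO DCs were in the 1% of cells with the most of it, against 11.4% for Arg1 and 6.47% for Ccr2. Kitl, the ligand of the receptor Kit, was at 16.3, 0.0687 and 0.581 CPM. Fam78b, Pianp and Gpr176 were also among the 15 highest ratios. Trim29, Gm46401 and Adgrl3 held 1 UMI each, Gpr176 2, and Col24a1 and Klra17 3 in the VD3 library, so their ratios are wide: the log2 ratio of Trim29 was 11.13 with an interval of 8.65 to 16.43. Klra17 belongs to a family of near-identical genes and its counts are uncertain.

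At the other end, Cyp24a1 stood alone in size. It held 0 UMIs in Ndrg2-KO DCs, 36662 in VD3 stimulated DCs and 1 in untreated DCs, or 315 CPM after VD3, at least 15071-fold higher than in Ndrg2-KO DCs (0 UMIs counted as 3 per library, here and for each gene at 0). Its transcripts were found in 25.2% of VD3 stimulated cells drawn to 2000 UMIs and in 0 of 7835 Ndrg2-KO cells. Most of the other 14 are known from granulocytes, basophils, mast cells and B cells. Prss34, Mcpt8 and Cpa3, proteases of basophils and mast cells, were at 0 in Ndrg2-KO DCs and at 25.2, 18.8 and 10.3 CPM in VD3 stimulated DCs, but untreated DCs had them at 24.4, 23.8 and 7.40 CPM as well. Ctsg and Mpo (neutrophil granule proteins), Prg2 and Prg3 (eosinophil granule proteins), Stfa1 and the immunoglobulin genes Igkc and Igha complete this group. In the VD3 library, all UMIs of Prss34, Mcpt8, Igkc and Igha and 95% of those of Ctsg were in the 1% of cells with the most of the gene, against 14.4% for Cyp24a1. Counts of Stfa1, Igkc and Igha can be shared with near-identical family members. Drd4 and Ocm had 383 and 235 UMIs after VD3 against 1 each in Ndrg2-KO and 0 and 3 in untreated DCs. Ctla2a and Dmpk held 6 and 1 UMIs in Ndrg2-KO DCs, with 38.5 and 4.6 CPM after VD3 and 42.0 and 3.63 CPM in untreated DCs.

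Genes tied to vitamin D were found on both sides. Of 16 measured genes for its receptor and partner receptors, its metabolism and its known response, 5 (31.2%, against 6.69% of all genes) were 2-fold higher in VD3 stimulated and 7 (43.8%, against 11.3%) in Ndrg2-KO DCs, and the median log2 ratio was 0.19, which turned to -0.01 with the total without mitochondrial and ribosomal protein genes. On the VD3 side were Cyp24a1, Hbegf, Trem1, Cebpd and the receptor itself. Vdr was at 55.4, 135 and 51.1 CPM and thus near the untreated level in Ndrg2-KO DCs. Hbegf, a ligand of the epidermal growth factor receptor, was at 4.03, 74.3 and 4.34 CPM, a log2 ratio of -4.20. On the Ndrg2-KO side were Itgam (CD11b), at 348, 52.4 and 198 CPM, Cd14 (the co-receptor for endotoxin), at 178, 40.9 and 44.3 CPM, and the partner receptor Rxra, at 19.8, 4.34 and 12.9 CPM. The transcription factors of the CEBP family divided, with Cebpa at 45.9, 9.93 and 30.3 CPM and Cebpb at 880, 400 and 548 CPM higher in Ndrg2-KO DCs, and Cebpd at 23.9, 64.0 and 47.0 CPM higher after VD3.

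The growth factors that act on vessels differed in kind between the libraries. Among 24 measured genes, 10 were 2-fold higher in Ndrg2-KO and 5 in VD3 stimulated DCs, and the median log2 ratio was 0.71 against 0.01 for all genes. Ligands higher in Ndrg2-KO DCs besides Vegfa were Igf1 (insulin-like growth factor 1), at 208, 2.40 and 20.5 CPM, Pdgfc at 6.69, 0.464 and 1.49 CPM and Hgf (hepatocyte growth factor) at 6.30, 1.66 and 1.61 CPM. Igf1 was 86.7-fold higher than in VD3 stimulated DCs, which lay below the untreated level. Spp1 (osteopontin, a secreted adhesion protein) was at 4392, 586 and 520 CPM, and the summed level of the list, which includes it, was 6327, 1707 and 1560 CPM. Thbs1, which restrains vessel growth, was at 382, 96.8 and 123 CPM, and Flt1, a receptor that binds Vegfa, at 10.2, 0.266 and 2.32 CPM. Ligands and an inhibitor were thus higher in the same library.

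VD3 stimulated DCs had another set of ligands. Hbegf (values above) and Pdgfa (platelet-derived growth factor A, a factor for mesenchymal cells), at 15.5, 131 and 13.9 CPM, were among them. Ptgs2 (the inducible cyclooxygenase) was at 0.292, 4.22 and 0.392 CPM and Adm (adrenomedullin) at 0.258, 3.47 and 1.72 CPM. Hbegf, Pdgfa and Ptgs2 were near the untreated level in Ndrg2-KO DCs. Pgf (placental growth factor) was lower than untreated in both libraries, at 1.02, 4.22 and 11 CPM. Pdgfb, at 30.9, 42.9 and 12.8 CPM, Tgfb1, at 231, 216 and 226 CPM, and the co-receptor Nrp2, at 192, 213 and 208 CPM, differed by less than 2-fold.

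**Figure D3:**
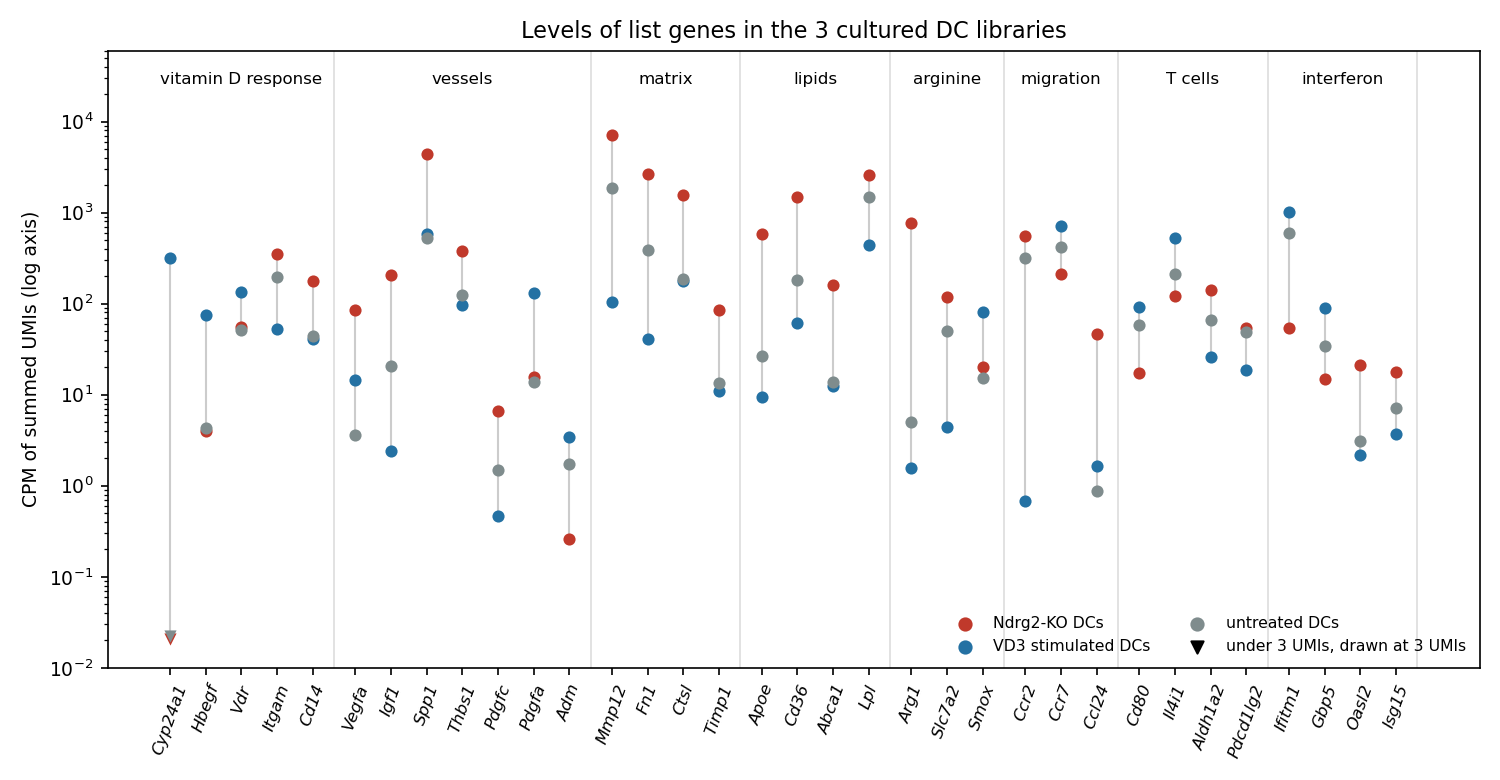
CPM (log axis) of genes of 8 programmes in Ndrg2-KO, VD3 stimulated and untreated DCs, 1 point per library; a triangle marks a library under 3 UMIs, drawn at 3 UMIs. Igf1, Arg1, Mmp12 and Fn1 were highest in Ndrg2-KO DCs, Cyp24a1, Hbegf and Pdgfa in VD3 stimulated DCs, and Vegfa was above the untreated level in both.

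Vegfa is a target of the hypoxia-inducible factors, which bind the core ACGTG or GCGTG, so other genes of this response were examined. The median log2 ratio of 25 hypoxia response genes was 0.44, and 4 were 2-fold higher in Ndrg2-KO and 2 in VD3 stimulated DCs, near the background of 11.3% and 6.69%. Ak4 (a mitochondrial adenylate kinase), at 9.41, 1.76 and 1.18 CPM, Ankrd37, at 15.6, 4.08 and 4.36 CPM, Plin2 (a lipid droplet coat protein), at 276, 102 and 177 CPM, and Hilpda (a lipid droplet protein), at 22, 10.5 and 8.77 CPM, were the 4 higher in Ndrg2-KO DCs. Adm and Ndrg1 (12.9, 38.2 and 39.1 CPM), the relative of Ndrg2 that hypoxia is known to induce, were on the VD3 side. Slc2a1 (a glucose transporter), Pdk1, Egln3 and Kdm3a were within 2-fold, with log2 ratios of 0.47, 0.03, -0.11 and -0.18. Hif1a itself was at 294, 198 and 114 CPM. Enzymes of glycolysis leaned to Ndrg2-KO DCs, where 7 of 24 were 2-fold higher and none was 2-fold higher after VD3, with a median of 0.60. These 7 were the hexokinases Hk2 (51.2, 17.4 and 37.4 CPM) and Hk3 (62.0, 13.6 and 17.2 CPM), Pfkfb4, Pfkp, Eno2, Pgam1 and Aldoc, while Gapdh was at 1436, 1684 and 1746 CPM. In cells with 0 or 1 mature DC markers, the median of the hypoxia response was -0.09 and that of glycolysis 0.22.

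The promoters were searched for the hypoxia core. In the 250 bases before the start of transcription (RefSeq, GRCm38.p6, 1 promoter for each of 27025 genes, both strands, overlaps counted), 38.6% of all promoters held it, as did 57.7% of the promoters of tested genes, 45.5% of those of genes 2-fold higher in Ndrg2-KO and 53.1% of those 2-fold higher in VD3 stimulated DCs. It was in 19 of 21 hypoxia response promoters and in 16 of 23 glycolysis promoters. In that of Vegfa 0 matches lay, but bases further upstream were not searched. For hypoxia response genes 2-fold higher in Ndrg2-KO DCs it was in 3 of 4 promoters (not in that of Hilpda), and in 16 of 17 of the others. For glycolysis these were 6 of 7 and 10 of 16. The windows below are shown for 4 genes at least 2-fold higher in Ndrg2-KO DCs, 5′ to 3′ on the strand of the gene, with the core on either strand in capitals (CACGT and CACGC are the reverse strand). Hk2 is on the minus strand, at chr6:82774656-82774700 and chr6:82774482-82774526, Ak4 on the plus strand, at chr4:101419195-101419239 and chr4:101419233-101419277, Ankrd37 on the minus strand, at chr8:46000067-46000100, chr8:45999978-46000025 and chr8:45999851-45999876, and Pfkfb4 on the plus strand, at chr9:108991765-108991809.
Hk2: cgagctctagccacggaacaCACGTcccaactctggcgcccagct
Hk2: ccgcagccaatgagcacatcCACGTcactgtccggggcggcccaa
Ak4: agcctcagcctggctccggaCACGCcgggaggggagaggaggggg
Ak4: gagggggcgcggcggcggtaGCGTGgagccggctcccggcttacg
Ankrd37: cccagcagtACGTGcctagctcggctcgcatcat
Ankrd37: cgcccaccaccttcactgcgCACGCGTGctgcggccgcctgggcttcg
Ankrd37: gcacatgtcagtgtttgggtACGTGa
Pfkfb4: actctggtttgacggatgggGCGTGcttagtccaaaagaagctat

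Matrix proteins and proteases, which open tissue for vessels and migrating cells, were mostly higher in Ndrg2-KO DCs. Of 26 measured genes 20 were 2-fold higher in Ndrg2-KO and 1 in VD3 stimulated DCs, the median log2 ratio was 2.20, and their summed level was 17960, 1531 and 4143 CPM. Mmp12 (macrophage elastase) was at 7081, 105 and 1864 CPM, or 67.7-fold higher, and Fn1 (fibronectin) at 2687, 41.1 and 388 CPM, or 65.3-fold higher. Both were below the untreated level after VD3. Mmp13 (collagenase 3), at 64.1, 2.03 and 2.68 CPM, Mmp19, at 110, 2.98 and 12.5 CPM, and the cathepsins Ctsk, at 16.1, 0.309 and 1.97 CPM, and Ctsl, at 1579, 176 and 186 CPM, were also higher in Ndrg2-KO DCs. Inhibitors of these proteases were on the same side, with Timp1 at 85.5, 10.9 and 13.4 CPM and Timp2 at 73.6, 6.49 and 17.2 CPM. The plasminogen activator Plau was at 7.59, 0.696 and 5.08 CPM and its receptor Plaur at 241, 33.5 and 122 CPM. The gene on the VD3 side was Serpinb2, an inhibitor of plasminogen activators, at 0.682, 8.06 and 5.29 CPM, with 90.4% of its UMIs after VD3 in the 1% of cells with the most.

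Genes of lipid-handling macrophages, lysosomes and sterol synthesis were higher in Ndrg2-KO DCs as well. All 24 measured genes of lipid-handling macrophages had a ratio above 0 and 19 were 2-fold higher there, with a median of 2.08, although Lgals3, Abcg1 and Cd63 were on the other side of 0 among cells with at least 3 mature DC markers (log2 ratios of -0.37, -0.09 and -0.15), as was Trem2 among cells with 0 or 1 (-0.16). Apoe, which carries cholesterol out of cells, was at 583, 9.32 and 26.9 CPM. Cd36, a scavenger receptor for oxidised lipid, was at 1470, 61.4 and 182 CPM, the cholesterol exporter Abca1 at 162, 12.6 and 13.9 CPM, and Lpl (lipoprotein lipase) at 2621, 438 and 1478 CPM. Trem2, the receptor that marks such macrophages, was within 2-fold, at 499, 343 and 157 CPM, and above the untreated level in both libraries. Their order against the untreated library varied, since Apoe and Cd36 were below it after VD3 and Abca1 was near it.

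Of 36 lysosomal genes 20 were 2-fold higher in Ndrg2-KO and 0 in VD3 stimulated DCs, with a median of 1.09. The cathepsins Ctsd, at 3420, 779 and 943 CPM, Ctsb, at 1922, 412 and 479 CPM, and Ctss, at 2819, 508 and 890 CPM, and Psap (prosaposin), at 6834, 1819 and 2356 CPM, showed it. Atp6v0d2, a subunit of the proton pump, was at 396, 71.4 and 58.9 CPM and Ctse at 43.5, 1.08 and 0.505 CPM. Npc2, Ctsz and Ctsh were within 2-fold, with log2 ratios of -0.24, 0.10 and 0.22. Of 30 genes of sterol and fatty acid synthesis, 16 were 2-fold higher in Ndrg2-KO and 0 in VD3 stimulated DCs, with a median of 1.06. Scd2 (a desaturase) was at 215, 35.4 and 65.8 CPM, Dhcr7 at 19.3, 3.91 and 6.90 CPM, Sc5d at 58.9, 13.5 and 18.6 CPM, Cyp51 at 49.3, 11.9 and 38.2 CPM and Hmgcs1, which opens the pathway, at 69.6, 20.0 and 45.6 CPM. Dhcr7 converts 7-dehydrocholesterol, the precursor from which vitamin D is made, to cholesterol. Genes of cholesterol export and of its synthesis were thus higher in the same library.

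**Figure D4:**
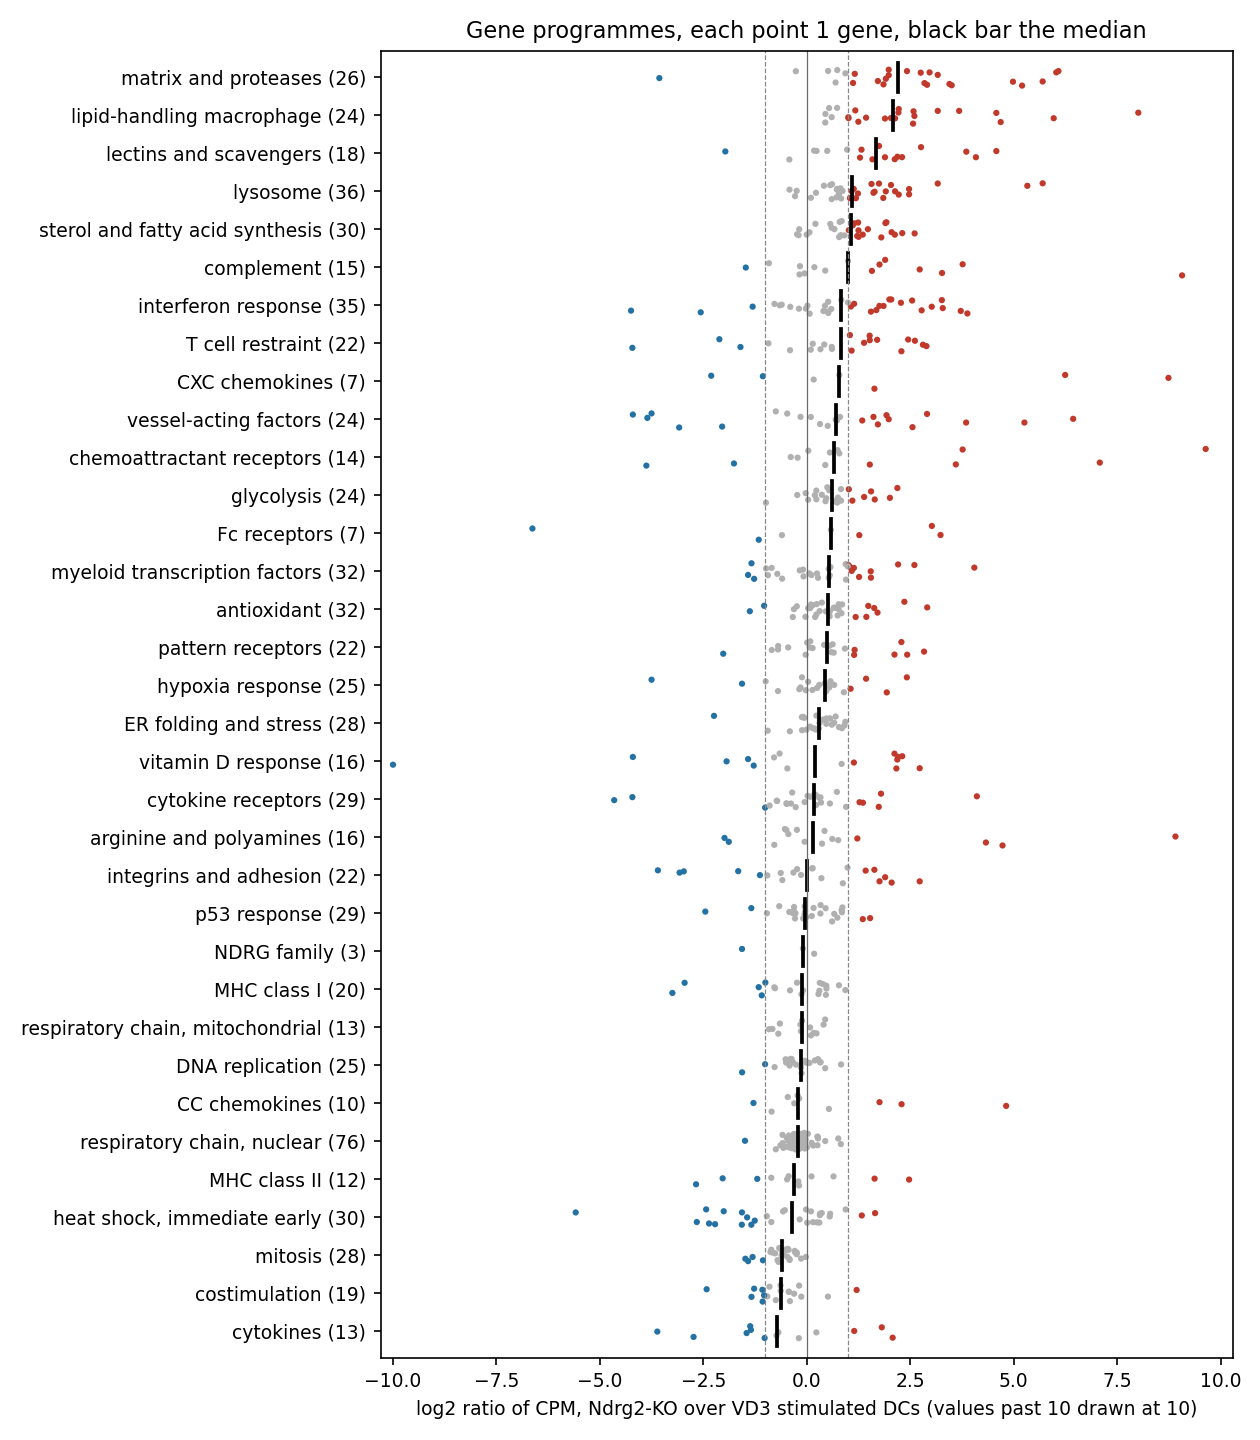
log2 ratio of CPM in Ndrg2-KO over VD3 stimulated DCs (horizontal axis) for each measured gene of 34 programmes (rows, with the number of genes), black bars at the medians and values past 10 drawn at 10. Matrix and lipid-handling macrophage genes had medians of 2.20 and 2.08, costimulation genes of -0.63 and cytokines of -0.73.

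A few genes of arginine metabolism were far apart. The median of the list over 16 genes was 0.16, or -0.04 with the total without mitochondrial and ribosomal protein genes, and 4 (25%, against 11.3% of all genes) were 2-fold higher in Ndrg2-KO and 2 (12.5%, against 6.69%) in VD3 stimulated DCs. Arg1 (values above) and Slc7a2, the transporter that brings arginine into macrophages, at 119, 4.46 and 49.9 CPM, were on the Ndrg2-KO side. Nos2, which makes nitric oxide from arginine, was low in all libraries but higher in Ndrg2-KO DCs, at 1.73, 0.0859 and 0.0754 CPM, with all of its UMIs there in the 1% of cells with the most. VD3 stimulated DCs had more Arg2, the mitochondrial arginase, at 3.53, 13.0 and 4.91 CPM, and more Smox (spermine oxidase), at 20.3, 80.5 and 15.2 CPM. Odc1, which starts polyamine synthesis, was at 61.0, 83.0 and 126 CPM and below untreated in both.

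Receptors that guide cells were found on both sides, and Ccr2, Cx3cr1 and Ccr7 are also among the maturity markers. Of 14 chemoattractant receptors 5 were 2-fold higher in Ndrg2-KO DCs, Ccr2, Ccr1 and C3ar1 among them, and Cx3cr1, the fractalkine receptor of monocytes, was at 11.8, 0.970 and 2.87 CPM. Ccr7 was at 211, 713 and 424 CPM, lower than untreated in Ndrg2-KO DCs and higher after VD3. Cxcr2, the neutrophil receptor, was at 0.780, 11.5 and 6.45 CPM. Of the CC chemokines, Ccl24, which attracts eosinophils, was at 46.5, 1.65 and 0.867 CPM, and Ccl6, at 8204, 1677 and 2598 CPM, and Ccl9, at 2283, 675 and 815 CPM, which attract myeloid cells, were also higher in Ndrg2-KO DCs. Ccl4 was at 82.2, 201 and 60.4 CPM. Ccl17, at 1166, 1358 and 3078 CPM, and Ccl22, at 444, 801 and 1225 CPM, both of which attract T cells, were below the untreated level in both libraries and within 2-fold of each other. Of the CXC chemokines, the platelet factors Pf4 and Ppbp were at 902, 290 and 556 CPM and at 109, 1.44 and 31.1 CPM, and the interferon-induced Cxcl10 was at 1.09, 5.42 and 1.70 CPM, with 83.8% of its UMIs after VD3 in the 1% of cells with the most.

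Genes by which DCs stimulate T cells were mostly lower in Ndrg2-KO than in VD3 stimulated DCs. Of 19 costimulation and activation genes 17 had a ratio below 0, 6 were 2-fold higher in VD3 stimulated and 1 in Ndrg2-KO DCs, and the median was -0.63. Cd80, a ligand of CD28, was at 17.1, 91.7 and 58.0 CPM, so that VD3 lay above and Ndrg2-KO below untreated DCs, whereas Cd86, its partner, was at 74.7, 85.0 and 90.7 CPM. Cd83 was at 81.0, 205 and 169 CPM and the NF-kappaB subunits Relb and Nfkb2 at 52.0, 126 and 105 CPM and at 34.1, 71.6 and 70.2 CPM. Cd40 was under the untreated level in both, at 3.82, 5.16 and 14.6 CPM. The gene on the Ndrg2-KO side was Tnfsf4 (OX40 ligand), at 15.1, 6.56 and 9.82 CPM. Among cells with at least 3 mature markers the median of this list was -0.03, against -0.68 in cells with 0 or 1, and the difference between the classes was not tested.

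Of 12 genes of class II antigen presentation 3 (25%, against 6.69% of all genes) were 2-fold higher in VD3 stimulated and 2 (16.7%, against 11.3%) in Ndrg2-KO DCs, with a median of -0.32. H2-Aa was at 800, 1084 and 1255 CPM, H2-Ab1 at 487, 561 and 908 CPM and the class II activator Ciita at 15.8, 18.0 and 46.2 CPM, each below the untreated level in both libraries. The modifiers of peptide loading H2-Oa and H2-Ob were lower in Ndrg2-KO DCs, at 8.48, 34.7 and 25 CPM and at 0.536, 3.43 and 2.86 CPM, and the proteases Ctss and Lgmn (361, 116 and 83.0 CPM) were higher. Of 20 class I genes 5 were 2-fold higher in VD3 stimulated and 0 in Ndrg2-KO DCs. H2-Q6 and H2-Q7, class I genes so alike that reads can be shared between them, were at 17.9, 170 and 47.3 CPM and at 41.9, 324 and 93.2 CPM, and the immunoproteasome subunits Psmb8 and Psmb9 at 347, 738 and 588 CPM and at 125, 280 and 175 CPM. B2m, at 2481, 1892 and 1355 CPM, and H2-K1, at 1359, 1799 and 962 CPM, were above untreated DCs in both.

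Genes that restrain T cells were divided between the libraries. Of 22 measured genes 11 were 2-fold higher in Ndrg2-KO and 3 in VD3 stimulated DCs, with a median of 0.83. Cd200r1 (an inhibitory receptor of myeloid cells), at 197, 26.5 and 107 CPM, Il1rn (the antagonist of interleukin 1), at 139, 22.7 and 71.8 CPM, Aldh1a2 (which makes retinoic acid), at 142, 26 and 66.7 CPM, Pdcd1lg2 (PD-L2), at 53.5, 18.6 and 49.3 CPM, and Nt5e (CD73, which makes adenosine), at 14.4, 2.06 and 9.21 CPM, were higher in Ndrg2-KO DCs. All 5 were below the untreated level after VD3. Il4i1, an amino acid oxidase that limits T cells, at 121, 524 and 211 CPM, Il1r2, the decoy receptor for interleukin 1, at 2.97, 55.2 and 28.2 CPM, and Socs3 were higher in VD3 stimulated DCs. Socs3 turned to a log2 ratio of 0.23 among cells with at least 3 mature markers. Cd274 (PD-L1) did not separate the libraries, at 157, 142 and 120 CPM, and Il10 held 4, 10 and 7 UMIs.

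Of 13 measured cytokines 6 were 2-fold higher in VD3 stimulated and 3 in Ndrg2-KO DCs, with a median of -0.73. Tnf was at 3.46, 42.3 and 35.1 CPM and Ltb (lymphotoxin beta) at 1.92, 12.8 and 19.6 CPM, so VD3 stimulated DCs were nearer to untreated DCs. Il12b, at 6.18, 15.7 and 11.3 CPM, Osm, at 10.1, 27.6 and 14.1 CPM, Il15, at 15.8, 32.1 and 15.4 CPM, and Il6, at 1.06, 2.73 and 3.35 CPM, were the others on the VD3 side. Ndrg2-KO DCs had more Tnfsf13b (the B cell factor BAFF), at 8.06, 2.29 and 1.55 CPM, Tnfsf15 and Csf1. Among cells with at least 3 mature markers the median was 0.17 and Il6 turned to a log2 ratio of 0.63, whereas Tnf stayed at -3.23. Among cells with 0 or 1, Il15 turned to 0.20. Of 29 cytokine receptors, Kit, the receptor of stem cell factor, was at 1.22, 30.7 and 1.89 CPM, so VD3 stimulated DCs held Kit and Ndrg2-KO DCs its ligand Kitl. Of 7 mast cell markers, 5 were at 0 UMIs in Ndrg2-KO and 3 in VD3 stimulated DCs and 1 had no row. The receptor Il7r was at 257, 74.2 and 97.6 CPM and Il1r1 at 3.41, 0.197 and 2.07 CPM.

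Of 18 lectins and scavenger receptors 12 were 2-fold higher in Ndrg2-KO and 1 in VD3 stimulated DCs, with a median of 1.67. Clec4a2 was at 254, 17.5 and 126 CPM, Clec4b1 at 73.6, 4.33 and 31.3 CPM and Mrc1 (the mannose receptor) at 95.3, 14.1 and 62.7 CPM, and Clec12a, an inhibitory lectin, was on the VD3 side at 43.4, 170 and 91.4 CPM. Of 22 pattern receptors and adaptors 6 (27.3%, against 11.3% of all genes) were 2-fold higher in Ndrg2-KO and 1 (4.55%, against 6.69%) in VD3 stimulated DCs. The endosomal RNA sensors Tlr7 (14.3, 2.93 and 4.78 CPM), Tlr8 (3.68, 0.515 and 1.15 CPM) and Tlr13 (29.3, 5.44 and 11.9 CPM) were among them, whereas Tlr2, Tlr4 and Nlrp3 were within 2-fold. Of 7 Fc receptor genes 3 were 2-fold higher in Ndrg2-KO and 2 in VD3 stimulated DCs. Fcgr1 was at 91.2, 11.2 and 42.8 CPM and Fcgr4 at 8.39, 0.893 and 0.867 CPM, whereas Fcgrt, the neonatal Fc receptor, was at 23.5, 52.5 and 34.4 CPM and Fcer1a, the IgE receptor of basophils and mast cells, held 0, 241 and 388 UMIs. Complement held C3ar1 and the proteases C1ra and C1s1 on the Ndrg2-KO side and C1qa, at 90.5, 251 and 129 CPM, on the VD3 side, while C1qb and C1qc were within 2-fold.

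Most interferon response genes that differed were higher in Ndrg2-KO DCs. Of 35 measured genes 16 were 2-fold higher in Ndrg2-KO and 3 in VD3 stimulated DCs, with a median of 0.84, but the summed level, 2006, 3862 and 1689 CPM, was higher after VD3, where it includes Ifitm1 and Ifitm3. The antiviral genes Oasl2, at 21.3, 2.18 and 3.13 CPM, Oas3, at 12.1, 1.26 and 2.20 CPM, Rtp4, at 13.5, 0.919 and 0.950 CPM, Ifi204, at 38.6, 2.93 and 5.01 CPM, Isg15, at 17.8, 3.68 and 7.08 CPM, and Ifit1, at 6.41, 0.936 and 1.61 CPM, were higher in Ndrg2-KO than in VD3 stimulated and in untreated DCs. Ifitm1, at 53.6, 1017 and 604 CPM, Ifitm3, at 724, 1794 and 305 CPM, and Gbp5, at 15.0, 88.9 and 34.3 CPM, were higher after VD3. Stat2 and Irf9, which carry the signal, were within 2-fold. Genes of the Ifit, Ifitm, Oas and Ifi200 families have close relatives and their counts can be shared between them.

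The promoters were searched for the interferon-stimulated response element. The letters GAAA, any 2 bases and GAAA, searched on both strands of the same 250 bases, were in 3.04% of all promoters, in 2.86% of those of tested genes and in 15 of 29 interferon response promoters. They were in 6 of the 13 promoters of list genes 2-fold higher in Ndrg2-KO DCs and in 9 of the 16 of the other list genes, and 0 matches lay in that of Oasl2. Windows are shown for 4 genes higher in Ndrg2-KO DCs, on the strand of the gene, with the element in capitals on either strand (TTTC, 2 bases and TTTC are the reverse strand). They lie at chr4:156200855-156200916 for Isg15 (minus strand, with 3 overlapping matches), at chr19:34640765-34640833 for Ifit1 (plus strand), at chr19:34583353-34583402 and chr19:34583387-34583436 for Ifit3 (plus strand), and at chr5:120777705-120777754 for Oas3 (minus strand).
Isg15: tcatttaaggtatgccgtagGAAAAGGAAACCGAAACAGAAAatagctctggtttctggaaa
Ifit1: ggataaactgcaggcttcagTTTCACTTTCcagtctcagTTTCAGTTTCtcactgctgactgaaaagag
Ifit3: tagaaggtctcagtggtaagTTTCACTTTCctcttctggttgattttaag
Ifit3: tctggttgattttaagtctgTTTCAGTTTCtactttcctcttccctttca
Oas3: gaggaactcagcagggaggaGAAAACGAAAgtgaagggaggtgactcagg

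Immediate early genes respond within minutes to stimulation and to cell handling. In a list of 30 immediate early and heat shock genes 11 were 2-fold higher in VD3 stimulated and 2 in Ndrg2-KO DCs, 17 had a ratio below 0 and 13 above it, and the median was -0.35. Fosb was at 1.09, 52.1 and 33.4 CPM, Fos at 15.3, 82.6 and 54.3 CPM, Egr1 at 24, 112 and 83.3 CPM and Junb at 147, 437 and 278 CPM, so the Ndrg2-KO library was the lowest of the 3 for each. The heat shock proteins Hspa8 (1573, 1223 and 1572 CPM) and Hsp90ab1 were within 2-fold. How the cells were handled before capture was not tested.

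Proliferation genes were read against the 6.69% of all genes that were 2-fold higher after VD3. Mki67, which marks dividing cells, was at 48.0, 85.5 and 109 CPM. All 28 genes of mitosis had a ratio below 0, with a median of -0.59 and 4 (14.3%) past 2-fold, of which Hmmr was at 11.8, 33.0 and 32.3 CPM and Cenpf at 23.7, 63.3 and 48.2 CPM. The median of mitosis genes was 0.03 when cells were limited to under 5% mitochondrial UMIs. Of 25 DNA replication genes 2 (8%) were 2-fold higher after VD3, near that share, with a median of -0.13. Of 76 nuclear genes of the respiratory chain and ATP synthase 65 had a ratio below 0, with a median of -0.22 and 1 gene past 2-fold, and of the 13 encoded in mitochondria none was past 2-fold.

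Markers of other bone marrow cells differed between the libraries. Of 7 granulocyte or monocyte markers 6 were 2-fold higher in VD3 stimulated DCs, and their summed level was 419, 6458 and 5602 CPM. S100a8 was at 216, 3561 and 3044 CPM, S100a9 at 136, 2337 and 2031 CPM and Lcn2 at 17.0, 263 and 136 CPM. Of 7 basophil markers 6 were 2-fold higher in VD3 stimulated DCs, and the summed level was 12.4, 64.5 and 69.6 CPM. In Ndrg2-KO DCs 5 were at 0 UMIs, and only Gata2 and Cd200r3 had UMIs there. Cd200r3 went the other way, with a log2 ratio of 1.49, and was found in 1.90, 0.430 and 0.840% of cells. B cell markers summed to 4.20, 34.3 and 15.0 CPM, of which Ighm was 3.59, 30.4 and 8.24 CPM. Early granulocyte markers summed to 31.6, 103 and 234 CPM. Of the 6 measured ones 5 were 2-fold higher in VD3 stimulated DCs and 1 had a ratio above 0, at 0.53. The Ndrg2-KO library was the lowest of the 3 in each of these sums. When cells with proliferation or granulocyte markers were left out, 1353 genes were 2-fold higher in Ndrg2-KO and 713 in VD3 stimulated DCs, and of 305 genes named or listed here that were 2-fold different 296 stayed so with no change of sign.

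Since the proportions of mature cells differed, the comparison was repeated among cells grouped by their number of mature markers, which does not match them for premature markers. Nor does it match them for granulocytes and dividing cells, which the class with 0 or 1 mature markers, called less mature below, can also hold. Cells without at least 3 proliferation or granulocyte markers made up 89.6% of the drawn Ndrg2-KO and 78.0% of the drawn VD3 stimulated cells. At least 3 mature markers were held by 2664 Ndrg2-KO cells (median 12312 UMIs) and 3983 VD3 stimulated cells (14076 UMIs), and 0 or 1 by 4212 (19025 UMIs) and 3267 cells (11494 UMIs), with 959 and 426 cells between at 2 markers. The median number of premature markers was 2 in Ndrg2-KO and 0 in VD3 stimulated cells with at least 3 mature markers, and 4 and 2 in those with 0 or 1. Vegfa kept its difference in both classes, with log2 ratios of 2.61 (79.9 against 13.1 CPM) among cells with at least 3 mature markers and 2.34 (84.6 against 16.7 CPM) among those with 0 or 1. Ccr2, at 10.19 and 8.86, Arg1, at 8.14 and 8.48, Igf1, at 5.26 and 6.37, Mmp12, at 5.94 and 5.51, and Fn1, at 5.98 and 5.48, were likewise far apart in both. The matrix list had medians of 2.62 and 2.15, the lipid-handling macrophage list of 1.64 and 1.82, the lysosomal list of 0.91 and 0.89 and the interferon list of 0.87 and 0.98. Cyp24a1 was at 122 CPM in mature and 577 CPM in less mature VD3 stimulated cells and at 0 in Ndrg2-KO cells of both classes.

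Other differences were not alike in both classes. Cd83 was at a log2 ratio of -0.43 among mature cells and 1.12 among less mature cells, and Ifitm3 at 0.11 and -2.22. Ngp, a granule protein, turned from -5.81 in less mature cells to 0.78 in mature cells, where it was at 25.6 and 14.9 CPM, but it was found in 0.179% of Ndrg2-KO and 2.91% of VD3 stimulated cells, so this rests on few cells. Sterol synthesis had medians of 0.51 among mature and 1.07 among less mature cells and mitosis genes of -0.35 and -1.21. Pdgfa, at -1.76 and -3.95, Hbegf, at -4.96 and -4.69, Kit, at -3.08 and -6.62, and Tnf, at -3.23 and -4.20, stayed on the VD3 side in both.

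**Figure D5:**
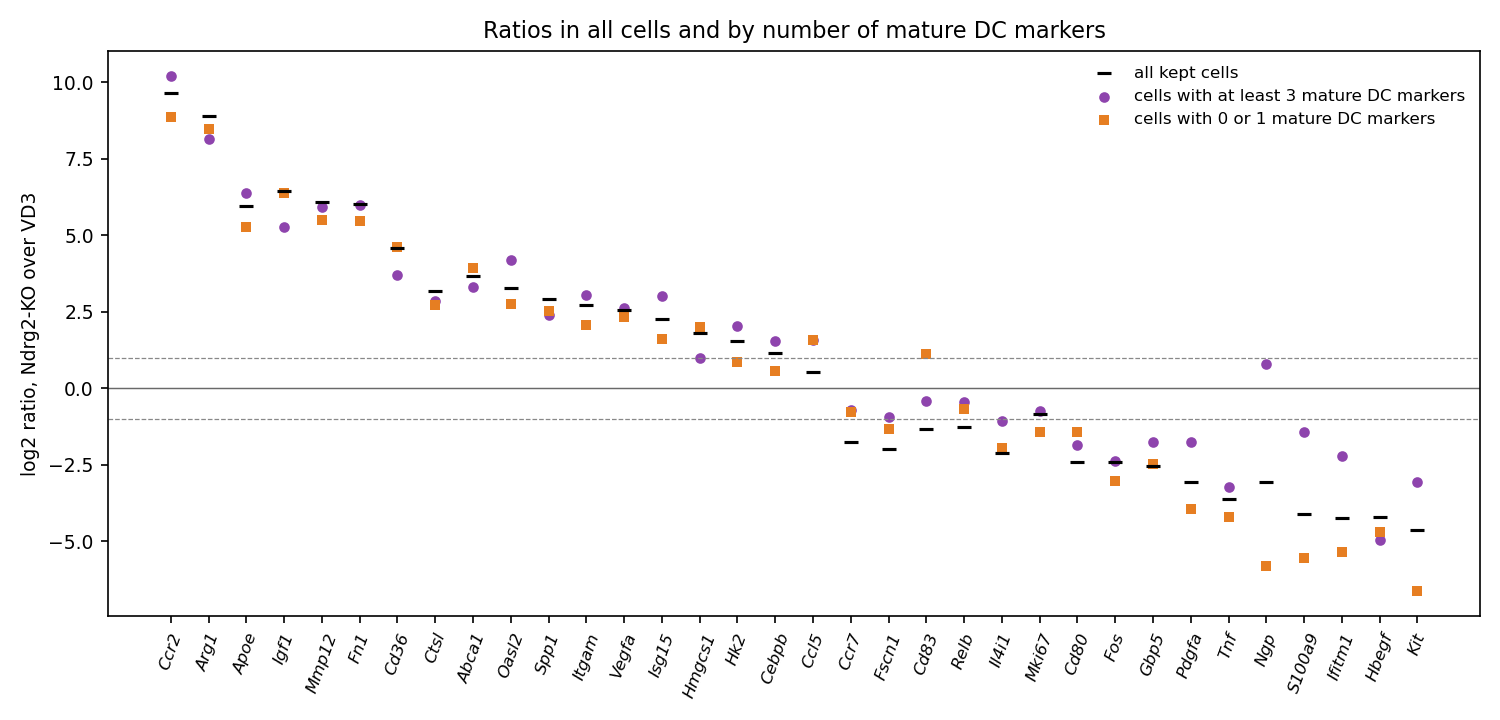
log2 ratio of Ndrg2-KO over VD3 stimulated DCs for 34 genes over all kept cells (black bars), in cells with at least 3 mature DC markers (circles) and in cells with 0 or 1 (squares). Vegfa lay between 2.34 and 2.61 in all 3, while Cd83 and Ngp changed sign between the classes, Ngp with UMIs in 0.179% of Ndrg2-KO cells.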

How the data were processed

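UMI counts per gene and cell of 3 droplet libraries were used as deposited. The authors had aligned the reads and counted UMIs with Cell Ranger 3.1.0 per the file headers. The build is mm10 in the study's methods and mm9 in the submitters' processing notes, and 31011 of 31053 gene identifiers were found in a GRCm38 annotation. Hashtag antibodies held no UMIs.

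Cells had to hold 300 or more genes, fewer than 100000 UMIs and a mitochondrial share below 10%, and no doublets were removed. Counts were summed per library and scaled to 1000000. Genes at least 2-fold apart were called, and 0 UMIs was set to 3 for a bound. Intervals are 95% exact Poisson (CPM), conditional binomial (ratios) and Clopper-Pearson (shares). Genes were named by rule: the 15 highest ratios each way and the members of the gene lists. Members and lists were chosen with earlier results of these data known. Steps were tested on simulated data. Python 3.11.15, NumPy 2.4.6, pandas 2.3.3, SciPy 1.17.1, scanpy 1.11.5 and matplotlib 3.10.9 were used. Some members of the gene lists count in the totals and are not reported here by name.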

Additional observations from a re-analysis of the deposited data

How the results depend on the processing

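No paired analysis was possible because each condition is 1 library. Limiting cells to under 5% mitochondrial UMIs left 8343 genes, with 1100 higher in Ndrg2-KO and 461 after VD3. Restriction to cells with at least 3 mature markers gave 823 and 316 of 9634 genes, and a minimum of 1000 UMIs per gene gave 853 and 423 of 8590. In these settings fewer genes could be tested. The log2 ratio of Vegfa was 2.80 under 5% mitochondrial UMIs, 2.36 with the total without mitochondrial and ribosomal protein genes and 2.34 in cells with 0 or 1 mature markers. Of 305 called genes that are named or in a list, 6 took the opposite sign among cells with at least 3 mature markers (Cd70 0.030, Csf3r 0.80, Ifitm3 0.11, Il6 0.63, Ngp 0.78 and Socs3 0.23), 4 among cells with 0 or 1 (Cacnb3 0.014, Cd83 1.12, Il15 0.20 and Il18r1 -1.37), 1 under 5% mitochondrial UMIs (Cd200r3 -0.62), and 0 under the other 7 settings run on them. The median of the mature DC markers was 0.0017 in cells with 0 or 1 of them. These markers, Cacnb3 among them, define that class, so their ratios within it cannot be read as a result. At 2000 UMIs, cDC1 markers were found in 4 Ndrg2-KO, 12 VD3 stimulated and 21 untreated cells, or 0.0511, 0.156 and 0.310%. Without drawing cells down, the share of cells with mature markers was 21.7 percentage points higher in Ndrg2-KO DCs and that with cDC1 markers 9.95 points higher, and at 4000 UMIs the cDC1 difference was 0.0025 points. Depth per cell differed between the libraries, so shares that were not drawn down hold that difference. The median of all genes moved to 0.13 under 5% mitochondrial UMIs and among cells with at least 3 mature markers. The automatic threshold of the doublet caller marked 1 and 0 cells, so the highest 6% of scores were left out instead, and 304 of the 305 genes stayed past 2-fold. With the sign kept, 64 of the 305 were under 2-fold among cells with at least 3 mature markers, 41 among cells with 0 or 1, 39 with the mean over cells, 25 with the total without mitochondrial and ribosomal protein genes and 19 under 5% mitochondrial UMIs.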

Other observations

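Of 32 measured antioxidant genes and targets of Nrf2, 7 (21.9%, against 11.3% of all genes) were 2-fold higher in Ndrg2-KO and 2 (6.25%, against 6.69%) in VD3 stimulated DCs, and the median log2 ratio was 0.51. Prdx1 (peroxiredoxin 1) was at 4559, 889 and 2209 CPM in Ndrg2-KO, VD3 stimulated and untreated DCs, Fth1 (the ferritin heavy chain) at 40938, 15091 and 20902 CPM and Hmox1 (heme oxygenase 1) at 271, 96.7 and 124 CPM. Nqo1, a quinone reductase, was at 6.86, 17.8 and 24.4 CPM. Of 29 p53 response genes 2 (6.9%) were 2-fold higher in each library, no more than the 11.3% and about the 6.69% of all genes, with Gadd45b at 44.7, 245 and 138 CPM and Zmat3 at 27.5, 9.52 and 18.6 CPM.

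Of 32 myeloid transcription factors 10 (31.2%) were 2-fold higher in Ndrg2-KO and 3 (9.38%, near the 6.69% of all genes) in VD3 stimulated DCs. Bhlhe41 was at 34, 2.05 and 9.72 CPM, while Irf8 was at 171, 307 and 133 CPM and Irf4 at 60.2, 55.6 and 60.1 CPM. Among adhesion molecules, Cd44 was at 303, 73.0 and 217 CPM and Jaml at 13.1, 110 and 100 CPM.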
